A study of Mus musculus with 185 samples.

Results

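The 10 genes described here modify, fold and process fibrillar procollagen, and their values were taken from a table of 17171 genes measured in 185 single cells of the mouse heart. They are P4ha1, P4ha2 and P4ha3, the alternative catalytic subunits of prolyl 4-hydroxylase, and P4hb, its partner subunit. The others are the lysyl hydroxylases Plod1, Plod2 and Plod3, the procollagen chaperone Serpinh1, the procollagen C-proteinase Bmp1 and its enhancer Pcolce. The genes were chosen for their function, with earlier results of these data known, and all 10 are listed in the table. Col1a1, the gene of a chain of type I collagen, is given beside them as the substrate.

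Procollagen chains are hydroxylated on proline and lysine in the endoplasmic reticulum. Prolyl hydroxylation stabilizes the triple helix, and lysyl hydroxylation prepares the sites of glycosylation and of later cross-links. Serpinh1 binds the folded helix on its way to the Golgi, and the C-propeptide is cleaved outside the cell by Bmp1 with the help of Pcolce before fibrils form. In the infarcted heart, where fibroblasts become myofibroblasts, this machinery serves the deposition of scar collagen.

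The cells came from Postn MCM/+; R26-eGFP and Tcf21 MCM/+; R26-eGFP mice, in which a tamoxifen-inducible Cre driven by the periostin or the Tcf21 locus switches on eGFP permanently in cells that express that locus. By the labels the mice were C57BL/6 by backcrossing and about 5 months old. Live non-myocytes negative for CD31 and CD45 were sorted from uninjured hearts or from the infarct region of hearts with a permanent ligation of the left coronary artery (MI), and captured one by one on the Fluidigm C1 system. The labels give neither the mouse nor its genotype for a cell, and Cre tracing marks only cells in which recombination took place, so untraced cells can belong to the lineage.

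From uninjured hearts, 33 resident cells were sequenced. They are 12 CD31- CD45- cells that the labels call Postn-, named resident CD31- CD45- cells below, 17 Tcf21-traced cells, 3 cells positive for Tcf21 and Postn, and 1 Postn-positive CD31- CD45- cell. The 152 activated cells of the infarct comprise 27 Postn-traced cells, 24 untraced cells without Postn mRNA (Postn-negative), 28 untraced cells with Postn mRNA (untraced Postn-positive), 44 Tcf21-traced cells and 29 untraced cells of the scar. These 9 classes were spread over 4 captures named in the labels. Jul24 held all 33 resident cells, and Jul29 the 27 Postn-traced, the 24 Postn-negative and 6 untraced Postn-positive cells. Nov4 held the 44 Tcf21-traced and 19 untraced Postn-positive cells, and Nov11 the 29 scar and 3 untraced Postn-positive cells. A class of the infarct and a resident class therefore differ in capture too, and class and capture cannot be told apart in these comparisons. Because no cell is assigned to an animal, each class is 1 sample without replicates, no test was run, and every SD is the spread between cells.

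The deposited values are log2 (TPM+1), where TPM is transcript abundance per length on a scale with a common sum for every cell. Values above 5 TPM, a minimum taken from the study's methods, were counted as detection. Read counts per cell are unknown here, and the number of genes above this minimum stands in for depth. It ranged from 141 to 5419 with a median of 2770 per cell. Class medians were 2091.5 in resident CD31- CD45- cells, 2264 in resident Tcf21-traced cells and 2342 in Postn-negative cells. They were higher in the remaining infarct classes, at 3280.5 in untraced Postn-positive, 3643 in Postn-traced, 3134 in activated Tcf21-traced and 3177 in scar cells. In the scar class 5 cells had fewer than 10% of the median number of genes over all cells. Even abundant genes were listed at 0 in some cells, Gapdh in 9 of 185 and Rps27a in 7, so a 0 of a weaker gene may be a transcript that was not captured.

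Marker lists were used to describe the cells. The 6 fibroblast markers include Col1a1 and Col3a1, above 5 TPM in 95.7% and 96.2% of the cells. The study held that fibroblasts cannot be reliably told by collagen mRNA, so the fibroblast count does not establish identity. At least 3 of 6 fibroblast markers were detected in 180 of the 185 cells. The same rule was met by 0 cells for endothelial, 1 for cardiomyocyte, 1 for epicardial, 2 for myeloid, 5 for pericyte and 22 for smooth muscle markers. The endothelial gene Cdh5, the cardiomyocyte gene Nppa and 4 of the 6 lymphocyte genes are not listed in the table, so the rule of 3 could not be met by lymphocyte markers and says nothing about them. One of the myeloid-marker cells was a resident CD31- CD45- cell, and that class had a summed mean of 1009 TPM over the 6 myeloid genes, led by Lyz2 at 433 TPM.

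Prolyl 4-hydroxylase has 3 genes for its catalytic subunit, and P4ha3 was the one listed at 0 in all 33 resident cells. By the limit of 3 counts of the total this allows a share of up to 9.09%, and the exact interval reaches 10.6%. Both limits hold for cells in which the transcript was captured, not for cells that express it. In Postn-negative cells its lowest, median and highest values were 0, 0 and 8.10 in log2 (TPM+1), and 1 of 24 cells was above 5 TPM (4.17%, exact 95% Clopper-Pearson interval 0.105% to 21.1%). In Postn-traced cells of the same capture they were 0, 5.21 and 8.91, with 17 of 27 cells above 5 TPM (63%, interval 42.4% to 80.6%). The intervals cover counting error over the cells of a class and not the variation between animals.

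The other infarct classes lay between these. P4ha3 was detected in 14 of 28 untraced Postn-positive cells (interval 30.6% to 69.4%), where the median was 2.75 and the highest value 8.71. These were 11 of 19 cells of capture Nov4, 2 of 6 of Jul29 and 1 of 3 of Nov11. Among activated Tcf21-traced cells it was detected in 18 of 44 (40.9%, interval 26.3% to 56.8%), with a median of 0 and a highest value of 7.88. Scar cells were lowest of these, with 4 of 29 (13.8%, interval 3.89% to 31.7%) and a highest value of 6.69. P4ha3 was thus most frequent in Postn-traced cells and in the untraced Postn-positive cells of Nov4, and at 0 in some cells of every class.

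P4ha1 was detected in resident cells as well. Its median was 6.02 in resident Tcf21-traced cells, where 12 of 17 cells were above 5 TPM, and 1.77 in resident CD31- CD45- cells, where 5 of 12 were. Infarct medians ran from 3.44 in scar cells and 4.67 in Postn-negative cells to 5.87 in untraced Postn-positive cells. Over the 7 classes of 12 or more cells the means spanned 2.57 to 5.17, a range of 2.60 that is smaller than the largest SD between cells of a class, 3.71. No order of the P4ha1 classes can be read from these values beyond the spread between cells.

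P4ha2 was detected in 8 of the 33 resident cells (24.2%) and in 75 of the 152 infarct cells (49.3%). Activated Tcf21-traced cells had the highest median, 5.15, with 29 of 44 cells above 5 TPM. Postn-traced cells followed with a median of 3.46 and 15 of 27 cells. In the other 3 infarct classes and in both larger resident classes the median was 0, with highest values between 7.70 and 10.49.

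The mixture of catalytic subunits can be compared because TPM is per length. P4ha1 held 85.2% of the summed mean TPM of the P4ha family in resident Tcf21-traced cells and was the most abundant of the 3 in all 12 cells with a detected P4ha gene. In Postn-traced cells P4ha1 held 40.5%, P4ha2 30.7% and P4ha3 28.8%, and they led in 8, 8 and 9 of 25 cells. Within single cells the lead therefore alternated, and the even class mixture was not repeated in each cell.

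P4ha3 held 19% in untraced Postn-positive cells and 11.5% in activated Tcf21-traced cells. Its 7.45% in Postn-negative cells came almost wholly from the 1 cell at 8.10, and its 3.53% in scar cells was 2.12% without the cell with the highest family total. A single cell supplied 56.3% of the family total in resident CD31- CD45- cells. With the highest cell left out, a choice made after the data were seen, the share of P4ha2 in that class went from 78.1% to 50.7%. For Postn-negative cells the same step took P4ha2 from 29.3% to 11.7%, and for Postn-traced cells it took P4ha3 from 28.8% to 33.5%. The summed mean TPM of the family was 324 in Postn-traced and 154 in Postn-negative cells.

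**Figure D1:**
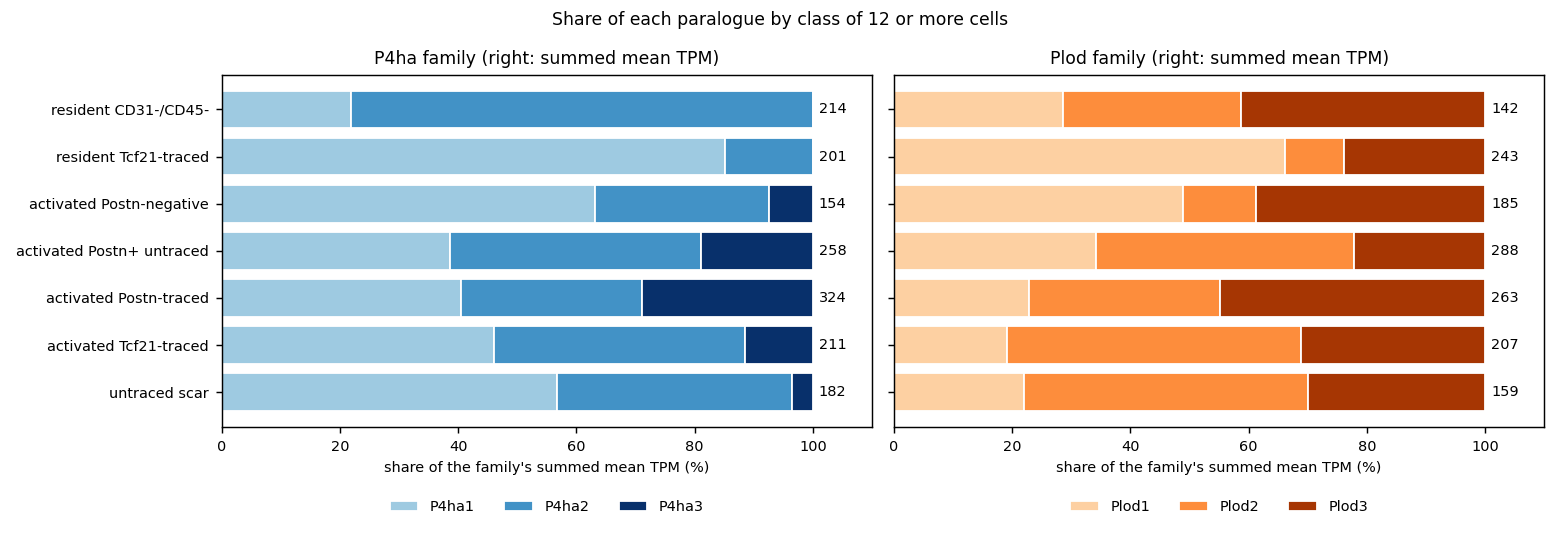
Share of the summed mean TPM held by each gene of the P4ha family (left) and of the Plod family (right), in percent, in the 7 classes of 12 or more cells; numbers at the bars are the summed mean TPM. P4ha3, in dark blue, is missing from both resident classes and widest in Postn-traced cells at 28.8%, and Plod1, in the palest orange, is widest in resident Tcf21-traced cells at 66.1%.

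In the GENCODE annotation of GRCm38, P4ha1 lies at chr10:59323296-59373304 (+ strand), P4ha2 at chr11:54100095-54131665 (+) and P4ha3 at chr7:100285520-100319699 (+). All 10 genes are protein coding. Exons of Plod2, Plod3 and Pcolce overlap exons of other annotated genes, among them Znhit1 opposite Plod3 and Fbxo24 on the strand of Pcolce. Whether reads were shared between such genes cannot be seen in a table of gene values.

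RefSeq promoters (build GRCm38.p6) were matched for 8 of the 10 genes, all but Plod2 and Bmp1. The 250 bases before the start of P4ha1 and P4ha3 are shown because these subunits differed most in where they were detected. They cover chr10:59323046-59323295 (+) and chr7:100285270-100285519 (+), printed 5′ to 3′. Capitals mark GGGCGG (the GC box) and ACGTG (the core of the hypoxia response element), each on either strand.
P4ha1: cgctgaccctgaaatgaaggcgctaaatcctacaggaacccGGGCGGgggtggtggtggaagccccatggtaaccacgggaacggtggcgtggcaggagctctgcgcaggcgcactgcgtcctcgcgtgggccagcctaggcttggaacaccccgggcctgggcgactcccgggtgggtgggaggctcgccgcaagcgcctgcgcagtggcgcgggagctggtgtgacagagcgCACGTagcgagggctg
P4ha3: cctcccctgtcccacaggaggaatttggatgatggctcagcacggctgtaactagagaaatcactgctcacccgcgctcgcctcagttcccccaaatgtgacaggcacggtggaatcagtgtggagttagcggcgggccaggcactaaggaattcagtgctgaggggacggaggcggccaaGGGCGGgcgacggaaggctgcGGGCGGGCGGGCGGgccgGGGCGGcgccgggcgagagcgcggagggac

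Of 32851 mouse promoters of this length, 32.7% hold GGGCGG and 16.6% hold ACGTG on either strand. Among the 8 matched genes 7 hold GGGCGG and 5 hold ACGTG. P4ha3 has 5 matches to GGGCGG, 3 of which overlap one another, and 0 to ACGTG, while P4ha1 has 1 of each. CCAAT was found in 2 of the 8 (33.8% of all promoters) and TATAAA in 1 of the 8 (12.4%), and neither is in the windows shown. The GC content was 69.6% for P4ha1 and 67.2% for P4ha3 against a median of 52.4% over all promoters. A match describes letters in the window and is no evidence of binding.

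P4hb, the protein disulfide isomerase that serves as the other subunit of the enzyme and also folds many secreted proteins, followed a different course. Its lowest, median and highest values were 0, 6.63 and 9.49 in resident CD31- CD45- cells and 0, 5.95 and 10.73 in resident Tcf21-traced cells. In Postn-negative cells they were 5.84, 9.37 and 11.15, and in Postn-traced cells 6.16, 8.84 and 10.52. It was above 5 TPM in every one of the 24 and 27 cells of these classes. P4hb was thus as high in the infarct cells without Postn mRNA as in those of the Postn lineage, although their ranges overlap with those of the resident cells.

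Medians of the other infarct classes were 9.46 in untraced Postn-positive cells, 9.71 in activated Tcf21-traced cells and 9.36 in scar cells, with 5 scar cells listed at 0. The 6 untraced Postn-positive cells of Jul29 were lower, with a median of 4.27, than the 19 of Nov4, with 9.47. In cells with P4hb and a P4ha gene both above 5 TPM, the log2 ratio of P4hb to the summed P4ha TPM had a median of -0.02 over 6 resident CD31- CD45- cells and 0.28 over 11 resident Tcf21-traced cells. It was 2.99 over 16 Postn-negative cells, 2.20 over 38 activated Tcf21-traced cells and 0.82 over 25 Postn-traced cells. Over 22 untraced Postn-positive cells it was 1.59, and over 20 scar cells 1.74. Single cells ran from -1.07 to 6.68 in Postn-negative, -3.20 to 6.52 in activated Tcf21-traced and -2.47 to 5.12 in Postn-traced cells. These ranges overlap widely, so the medians give no order of the classes. P4hb exceeded the catalytic subunits in 14 of the 16 Postn-negative and 21 of the 25 Postn-traced cells, against 6 of the 11 resident Tcf21-traced cells.

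Among the lysyl hydroxylases, Plod2, which hydroxylates the telopeptides of collagen, differed most between classes. Over the larger classes Plod2 had means with a range of 3.32, still less than the largest SD within a class, 3.38. It was detected in 6 of 33 resident cells (18.2%, interval 6.98% to 35.5%) and in 5 of 24 Postn-negative cells (20.8%, interval 7.13% to 42.2%), and the median of both larger resident classes and of Postn-negative cells was 0. In Postn-traced cells the lowest, median and highest values were 0, 5.41 and 8.81, and 18 of 27 cells were above 5 TPM (66.7%, interval 46% to 83.5%). Untraced Postn-positive cells had a median of 5.11 with 20 of 28 detected, and activated Tcf21-traced cells 4.62 with 28 of 44. Scar cells had a median of 2.15 with 14 of 29 detected. Plod2 therefore shared with P4ha3 low detection in Postn-negative cells, but it was also present in a few resident cells.

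Plod1, the enzyme for lysines of the helix, and Plod3, which also carries a glycosyltransferase activity, varied less over the 7 classes of 12 or more cells. There the means of Plod1 ran from 1.61 in resident CD31- CD45- cells to 3.96 in untraced Postn-positive cells, with resident Tcf21-traced cells next to the top at 3.63. Those of Plod3 ran from 1.66 in resident CD31- CD45- cells to 3.62 in Postn-traced cells. Both ranges, 2.35 and 1.96, are smaller than the largest SD within a class, 4.03 and 3.67. By this measure they do not stand apart from Plod2 (3.32 against 3.38). The range was also the smaller value for P4ha2 (2.37 against 3.92), P4hb (3.34 against 3.77), Bmp1 (3.74 against 3.82) and Pcolce (3.67 against 4.64). Only for P4ha3 was it the larger, at 4.22 against 3.33. Plod1 was detected in 82 and Plod3 in 77 of the 185 cells.

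Plod1 held 66.1% of the summed mean TPM of the Plod family in resident Tcf21-traced cells, 48.9% in Postn-negative cells and 22.9% in Postn-traced cells. Plod2 held 12.3% in Postn-negative, 32.2% in Postn-traced and 49.7% in activated Tcf21-traced cells. These shares rest on few cells. Without the 1 Postn-negative cell with the highest Plod total, which supplied 32.3% of it, Plod1 held 24.7% and Plod3 57.2% of that class.

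Serpinh1 was detected in most cells of every class. Its lowest, median and highest values were 0, 4.12 and 7.47 in resident Tcf21-traced cells, 0, 5.58 and 8.45 in resident CD31- CD45- cells and 0, 6.34 and 9.04 in Postn-negative cells. The highest median belonged to Postn-traced cells, with 0, 7.23 and 8.26, and 25 of the 27 cells were above 5 TPM. In scar cells the median was 6.30, and the highest value, 11.50, came from a shallow cell with 218 genes, the next being 10.22. Means of the 7 larger classes covered a range of 2.40, less than the largest SD within a class, and the classes overlapped throughout.

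Bmp1 and Pcolce act together on the C-propeptide but differed in level and pattern. Bmp1 had a median of 1.91 in resident CD31- CD45- cells, 4.10 in resident Tcf21-traced cells and 1.57 in Postn-negative cells, where 11 of 24 cells were above 5 TPM (45.8%, interval 25.6% to 67.2%). In Postn-traced cells the lowest, median and highest values were 0.64, 7.44 and 10.49, and 26 of 27 cells were above 5 TPM (96.3%, interval 81% to 99.9%). The highest Postn-negative cell reached 10.30, so high values occurred in both classes and the classes differed in how many cells had them.

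Pcolce was the most abundant of the 10 genes in every class with 12 or more cells other than scar cells by the mean of log2 values. Medians were 10.75 in resident CD31- CD45-, 10.63 in resident Tcf21-traced, 10.19 in Postn-negative, 11.12 in untraced Postn-positive, 10.60 in Postn-traced, 10.84 in activated Tcf21-traced and 9.83 in scar cells. All 33 resident cells had it above 5 TPM. In scar cells the values ranged from 0 to 12.43, with 6 of 29 cells at 0, and the SD of 4.64 was the largest within a class among the 10 genes.

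**Figure D2:**
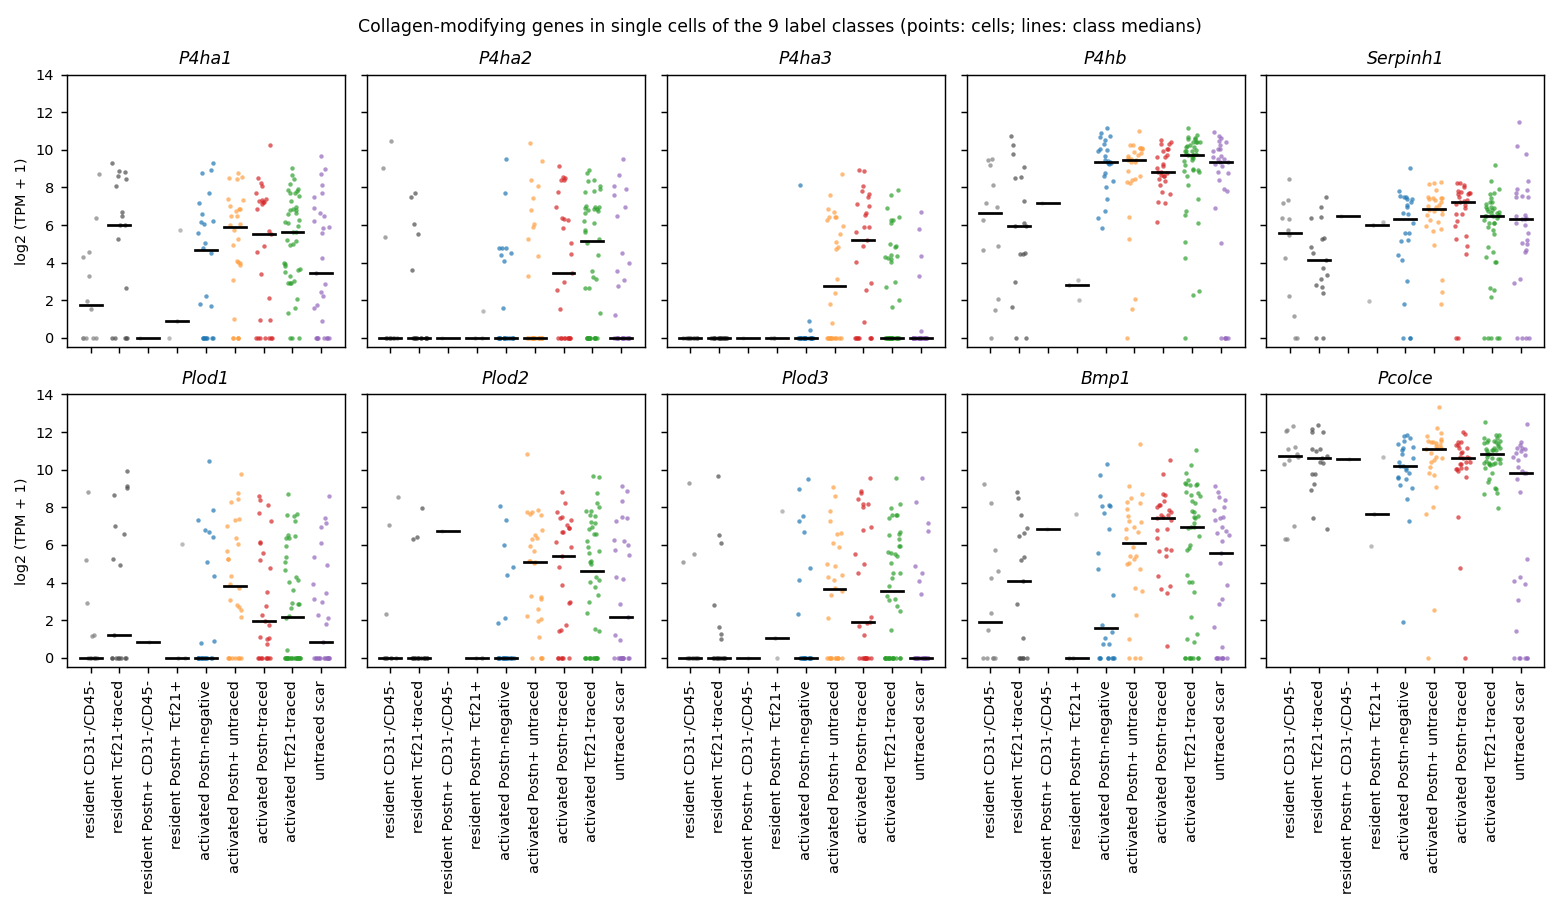
Each panel shows 1 gene, with log2 (TPM+1) on the vertical axis and the 9 label classes on the horizontal axis; points are cells and horizontal lines are class medians. P4ha3 lies at 0 in all 33 resident cells, P4hb is high in the infarct classes with a median of 9.37 in Postn-negative cells, and Pcolce lies near 10 in nearly all classes.

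The small resident classes gave only single values. The 1 Postn-positive CD31- CD45- cell had Plod2 at 6.72, Bmp1 at 6.83 and P4hb at 7.17, with P4ha1, P4ha2 and P4ha3 listed at 0. In the 3 cells positive for Tcf21 and Postn, P4hb was between 2.03 and 3.06, and Plod2 and P4ha3 were at 0.

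Counted per cell, the median number of the 10 genes above 5 TPM was 5 in both larger resident classes and in Postn-negative cells, and 6 in scar cells. It was 7.5 in untraced Postn-positive cells and 8 in Postn-traced and activated Tcf21-traced cells. At least 8 of the 10 were detected in 15 of 27 Postn-traced, 14 of 28 untraced Postn-positive and 23 of 44 activated Tcf21-traced cells. The same held for 6 of 29 scar, 1 of 24 Postn-negative, 1 of 17 resident Tcf21-traced and 0 of 12 resident CD31- CD45- cells. Genes of all kinds per cell had medians of 2091.5 in resident CD31- CD45-, 2264 in resident Tcf21-traced and 2342 in Postn-negative cells. They were 3177 in scar, 3280.5 in untraced Postn-positive, 3643 in Postn-traced and 3134 in activated Tcf21-traced cells. Most classes with more of the 10 thus had more genes of all kinds as well, and the part of depth in these counts was not tested.

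Within capture Jul29, Postn-traced cells can be set against Postn-negative cells, which were both untraced and without Postn mRNA. The 6 untraced cells of this capture with Postn mRNA are not part of this comparison, so it is not one of lineage alone. Of the 10 genes, 6 had class means more than 1 log2 unit higher in Postn-traced cells and 0 more than 1 lower. Over the 6379 genes above 5 TPM in at least 20% of the cells of either class, 39.4% were that much higher and 5.55% that much lower. The 10 differences had a median of 1.28 and all genes a median of 0.75, so a part of the rise was shared by genes at large. P4ha3 differed most of the 10, with 4.22 ± 3.33 (SD) over the 27 Postn-traced cells and 0.39 ± 1.65 over the 24 Postn-negative cells. This difference of 3.83 exceeded the SD of both classes and lay 3.08 above the median gene, and 0.925% of the compared genes differed by as much, a set that P4ha3 entered through its detection in Postn-traced cells.

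Bmp1 differed by 3.12 and Plod2 by 2.93, with 2.13% and 2.71% of all genes as high, though both differences were smaller than an SD between cells. P4ha2 (1.88), Plod3 (1.48) and Serpinh1 (1.07) were the others past 1 log2 unit, the last with 36.1% of all genes as high. Plod1 (0.75) and P4ha1 (0.64) were near the median gene, and Pcolce (0.06) and P4hb (-0.23) below it. Col1a1 differed by 3.90, from 6.55 ± 2.08 to 10.45 ± 1.53. P4ha3 came close to this value, and the other 9 genes differed less than their substrate.

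Centring each cell on its median detected gene adds the same 0.52 to the difference of every gene here, and so cannot change a gene's place among the others. The medians became 1.27 for all genes and 1.80 for the 10, and 8 of the 10, 61.7% of all genes in the higher and 2.66% in the lower direction passed 1 log2 unit. The sign of P4hb depends on this choice (-0.23 or 0.29), and it lay at -0.98 from the median gene under both. Plod1 (-0.58 with means of TPM) and Pcolce (-0.05 with a pseudocount of 0.1) were not steady in sign either. The value of Plod1 was 0.88 without the Postn-negative cell highest in it. P4ha1 was at 0.42 with means of TPM, and at -0.13 without the Postn-traced cell highest in it. Leaving out the highest cell of a gene from a mean of TPM, here and below, is a step added after the data were seen. It was done in either class, and the value nearer to 0 or of the other sign is given. Class means taken on the TPM scale before the logarithm left 3 of the 10 higher by more than 1 log2 unit and a median of 0.51, where 25.9% of all genes were higher and 18.6% lower around a median of 0.08. P4ha2, 1 of the 3, was at 1.12 and at 0.84 without 1 Postn-traced cell. In all alternatives that kept the highest cells, P4ha3 and Plod2 differed by at least 2.49 and 1.85. Bmp1 went down to 0.56 in these. Without the highest Postn-traced cell in a mean of TPM, P4ha3 was at 2.67, Plod2 at 1.59 and Bmp1 at 0.24.

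Lists of related genes give the setting. In Postn-traced cells 5 of 6 fibrillar collagen genes were higher by more than 1 log2 unit, with a median difference of 3.66, among them Col5a1 (3.85) and Col5a2 (3.77). Of 12 other genes of collagen modification and folding 6 were higher and 1 lower, with a median of 1.04, led by the collagen prolyl isomerase Fkbp10 at 6.39 ± 2.70 against 2.42 ± 3.13. Of 10 genes of procollagen export 6 were higher (median 1.52), and so were 3 of 5 lysyl oxidases (median 1.53). Lox, which starts the cross-linking of secreted collagen, rose from 1.16 to 7.57, a difference of 6.41.

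General chaperones of the endoplasmic reticulum did not share this course, since 0 of 12 were more than 1 log2 unit higher and 2 were lower, Hsp90b1 (-1.01) and Sdf2l1 (-1.79), around a median of 0.20. Other lists were mixed, beside the same 39.4% of all genes higher and 5.55% lower around a median of 0.75. Propeptide processing genes had 2 of 6 higher and 1 lower, with Adamts2 at 1.21 and Pcolce2 at -1.69. Hypoxia response genes had 4 of 12 higher and 1 lower with a median of 0.64, led by Ldha (3.55). Of 5 genes that supply ascorbate and proline only Pycr1, an enzyme of proline synthesis, was past 1 log2 unit, at 2.43. Of 8 abundant genes only Gapdh was, at 1.28.

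Smooth muscle markers moved with this comparison, in which 39.4% of all genes were higher and 5.55% lower. Of the 6, 2 were more than 1 log2 unit higher in Postn-traced cells, Tagln by 4.17 and Acta2 by 3.29, genes that myofibroblasts express too. The list summed to 753 TPM in Postn-traced cells, led by Tagln at 514 TPM, and to 106 TPM in Postn-negative cells, led by Smtn at 52 TPM, where Myh11 and Cnn1 were at 0. Of 6 pericyte markers Pdgfrb was higher by 2.16, with list sums of 107 and 85.3 TPM and Rgs5 and Kcnj8 at 0 in both classes. Of the fibroblast markers Col1a1 and Col3a1 were higher and Tcf21 lower by more than 1 log2 unit. No listed endothelial, myeloid, cardiomyocyte or epicardial marker passed 1 log2 unit, nor did the 2 listed lymphocyte genes. The part of these genes, and of the 3643 against 2342 genes per cell, in the difference was not tested.

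Activated and resident Tcf21-traced cells compare the fibroblast lineage after and before injury, in different captures. In activated cells 7 of the 10 passed 1 log2 unit upward and 0 downward, beside 41.7% of 6117 genes higher and 6.21% lower. Of the 7, Plod2 (17.6% of resident cells) and P4ha3 (0%) entered the compared genes only through their detection in activated cells. Plod2 (2.94), P4hb (2.85) and P4ha2 (2.37) differed most, and P4ha3 went from a class listed at 0 to a mean of 2.21 ± 2.71. Serpinh1, Bmp1 and Plod3 were higher by 1.39, 1.93 and 1.79. Plod1 was the lowest at -0.95, but its sign changed to 0.95 with medians over cells. No difference of the 10 exceeded the SD of both classes. The median was 1.86 against 0.81 for all genes, and 2.31 against 1.26 with cells centred, when 60% of genes were higher and 3.09% lower. With means taken on the TPM scale 6 of the 10 were higher and Plod1 lower at -1.99, beside 29.6% and 19.6% of genes. Without the highest resident cell Plod1 was at -1.46. Plod3 was at 0.15 on that scale, and at -0.25 without 1 activated cell. In the main values 8 of 12 general chaperones were higher too, with a median of 1.60, led by Pdia6 at 4.33. Of 6 smooth muscle markers 2 were higher, Tagln (3.62) and Acta2 (2.59), with sums of 465 TPM, led by Tagln at 229 TPM, and 103 TPM, led by Smtn, with Myh11 and Cnn1 at 0 in resident cells. Pdgfrb (1.85) was the 1 of 6 pericyte markers that was higher, and of the fibroblast markers Col1a1 (1.93) and Col3a1 (1.60) were higher and Pdgfra (-2.95) and Dcn (-1.15) lower. Their part, and that of 3134 against 2264 genes per cell, was not tested.

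Postn-traced cells set against the same 17 resident Tcf21-traced cells share that reference, so the values are given side by side and not as a second line of evidence. Again 7 of the 10 were higher and 0 lower, beside 47.2% and 5.73% of 6281 genes. Plod2 and P4ha3 entered the compared genes only through their detection in Postn-traced cells. Medians were 2.21 for the 10 and 0.93 for all genes, or 2.70 and 1.43 with cells centred, when 66.4% of genes were higher and 2.85% lower. Plod2 (3.15), P4hb (3.04) and Serpinh1 (2.40) were higher, Bmp1 went from 3.74 to 6.74, and P4ha3, listed at 0 in the resident class, had a mean of 4.22. P4ha1 (-0.52), Plod1 (-0.52) and Pcolce (-0.35) had values on the other side of 0. The sign changed for Plod1 with medians over cells (0.74) and for Pcolce with cells centred (0.14). On the TPM scale 6 were higher and Plod1 lower at -1.40, beside 31.8% and 20% of genes. Plod1 was at -0.87 without 1 resident cell and Plod3, 1 of the 6, at 0.68 without 1 Postn-traced cell. P4hb fell to 0.96 on that scale, and to 0.88 without 1 Postn-traced cell. General chaperones had 4 of 12 higher and 1 lower, with a median of 0.80. Among the markers Tagln (4.15), Acta2 (3.09), Pdgfrb (2.15), Col1a1 (3.32) and Col3a1 (3.21) were higher and Pdgfra (-1.87) and Dcn (-1.02) lower. Their part, and that of 3643 against 2264 genes per cell, was not tested.

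Postn-negative cells of the infarct against resident CD31- CD45- cells compare classes that the labels both call Postn-, in injured and uninjured tissue. Here 2 of the 10 were higher by more than 1 log2 unit and 0 lower, where 29% of 4997 genes were higher and 13.6% lower, so the count was no larger than that of genes at large. P4hb carried most of it, with 9.16 ± 1.44 (SD) over 24 Postn-negative and 5.82 ± 3.24 over 12 resident cells. Its difference of 3.34 exceeded both SDs, and 1.02% of genes differed by as much. P4ha1 was the other, at 1.28, and the others lay between -0.15 and 0.86. P4ha3 did not reach the 20% of cells needed to count among the compared genes. With means of TPM 4 of the 10 were higher and P4ha2 was lower at -1.86, beside 31.9% of genes higher and 21.3% lower. Of these only P4hb did not depend on a single cell. Without the highest Postn-negative cell P4ha3 went from 3.64 to 0.07, Plod1 from 1.14 to -0.32 and P4ha1 from 1.04 to 0.65, and without the highest resident cell P4ha2 was at -0.19.

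In the same comparison Col1a1 was -0.70, and 0 of 6 fibrillar collagens were more than 1 log2 unit higher and 2 lower. Over all compared genes 29% were higher and 13.6% lower. General chaperones of the endoplasmic reticulum were higher in 7 of 12 genes and lower in 1, with a median of 1.35, among them Calr (2.48), Hsp90b1 (2.13) and Pdia4 (1.83), while Hspa5 was lower by -1.49. P4hb moved here with the chaperone list and not with the collagens. The pair of classes had 2342 and 2091.5 genes per cell in the median. Of 6 myeloid markers Lyz2 was lower (-1.03), with a list sum of 0.313 TPM in Postn-negative and 1009 TPM in resident cells, and Tcf21 (3.35) of the fibroblast and Smtn (1.42) of the smooth muscle markers were higher. Their part was not tested.

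**Figure D3:**
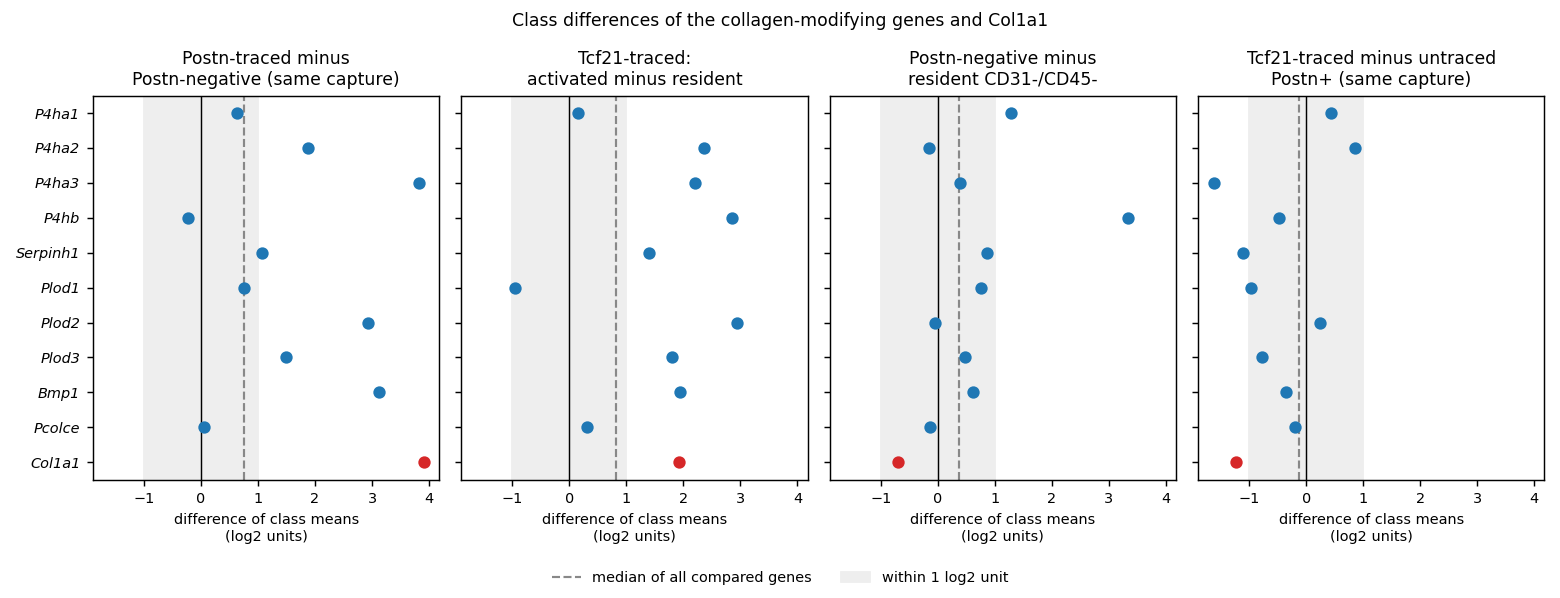
Differences of class means in log2 units (horizontal axis) for the 10 genes, in blue, and Col1a1, in red, in 4 of the 8 comparisons; dashed lines mark the median of all compared genes and grey bands 1 log2 unit either side of 0. P4ha3 is at 3.83 beside Col1a1 at 3.90 in Postn-traced against Postn-negative cells, and P4hb stands alone at 3.34 in Postn-negative against resident cells.

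Between activated Tcf21-traced cells of Nov4 and Postn-traced cells of Jul29 the 10 genes had a median difference of -0.20 and all genes -0.13. None was more than 1 log2 unit higher and 3 were lower, P4ha3 (-2.01), Bmp1 (-1.07) and, with means of 5.47 and 6.48, Serpinh1, beside 7.79% of 6748 genes higher and 13.9% lower. The value of Bmp1 changed sign to 0.25 with means taken on the TPM scale, and was 0.01 without 1 Tcf21-traced cell. On that scale only P4ha3 was lower by more than 1 log2 unit, beside 15.2% of genes higher and 16.7% lower. Col1a1 was at -1.39, and P4ha1 (0.68) and Pcolce (0.66) were on the higher side. Of the general chaperones 5 of 12 were higher in Tcf21-traced cells, with Hsp90b1 at 1.70.

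Within capture Nov4, activated Tcf21-traced cells can be set against 19 untraced Postn-positive cells. Again 0 of the 10 were more than 1 log2 unit higher and 2 were lower, beside 7.29% and 11.2% of 6992 genes. The 2 were P4ha3, at 2.21 ± 2.71 against 3.83 ± 2.94, and Serpinh1, at 5.47 ± 2.45 against 6.58 ± 1.19. Col1a1 was at -1.23. With means of TPM neither was past 1 log2 unit and Plod2 was higher at 1.09 (0.84 without 1 Tcf21-traced cell), beside 18.9% of genes higher and 15.8% lower. With cells centred 4 of the 10 were lower, and 3.66% of genes were higher and 19.8% lower, around a median of -0.39 for all genes and -0.67 for the 10. Of the smooth muscle markers Tagln (-2.12) and Acta2 (-1.20), of the pericyte markers Pdgfrb (-1.77), were lower in Tcf21-traced cells as well, while the fibroblast markers Tcf21 (1.62) and Pdgfra were higher. The smooth muscle list summed to 465 TPM in activated Tcf21-traced cells and to 930 TPM in all 28 untraced Postn-positive cells, and its part was not tested.

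Scar cells of capture Nov11 were lower than activated Tcf21-traced cells of Nov4 in 7 of the 10 genes and higher in 0. Beside this, 2.62% of 6270 genes were higher and 32.8% lower. P4ha3, among the 7, entered the compared genes only through its detection in Tcf21-traced cells. Pcolce differed most, at 6.99 ± 4.64 against 10.65 ± 0.96, a difference of -3.67 that was smaller than the SD of the scar cells. Serpinh1 was the only one of the 10 with a value above 0, at 0.26. The 5 shallow scar cells bear on these values. Without them, an alternative added after the data were seen, 4 of the 10 were lower with a median of -0.37 in place of -1.24, 7.99% of genes were higher and 17.4% lower, and P4hb changed sign from -1.07 to 0.53. Pcolce was at -2.21 without them. With means of TPM 2 of the 10 were lower and Serpinh1 higher at 1.37, beside 25.6% and 14.7% of genes. Serpinh1 was at 0.70 without its highest scar cell, a shallow one. The 2 lower genes were P4ha3 (-1.77) and Bmp1 (-1.25), while Pcolce was at -0.83 on that scale. With cells centred 9 of the 10 were lower, and 0.191% of genes were higher and 71.8% lower. Other lists were lower too, such as 5 of 8 abundant genes and 8 of 12 general chaperones. So were 3 of 6 smooth muscle markers, with sums of 216 and 465 TPM, and 3 of 6 fibroblast markers, while the epicardial gene Wt1 was higher (1.56), and their part was not tested.

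The larger resident classes, both of Jul24, differed in few of these genes. Tcf21-traced cells had 2 of the 10 more than 1 log2 unit higher and 0 lower, beside 25% of 4547 genes higher and 18.7% lower. P4ha1 differed by 2.44, with 2.60% of genes as high, and Plod1 by 2.02. Both differences were smaller than the SD between Tcf21-traced cells, 3.71 and 4.03. P4ha3 and Plod2 did not reach the share of cells needed to count among the compared genes, and the median of the 10 was 0.06 against 0.16 for all genes. With means of TPM the same 2 were higher and P4ha2 was lower at -2.45, or -0.78 without 1 resident CD31- CD45- cell, beside 29.1% of genes higher and 23.4% lower. Of the markers Pdgfra (1.85) and Acta2 (1.08) were higher and Lyz2 (-1.03) lower in Tcf21-traced cells.

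The relation of the 10 genes to Col1a1 between cells was described over all 185 cells, after each value was centred on the mean of its class within its capture. The cells share captures and classes, and depth acts on all genes of a cell, so the correlations are a description, and in sparse counts a weak correlation is no finding. Pearson correlations (r) with Col1a1 ran from 0.12 for Plod3 to 0.44 for Serpinh1, with a median of 0.24. Over 5038 genes above 5 TPM in at least 20% of cells the median was 0.08, and all 10 genes lay above it. With ranks 9 of the 10 lay above the median gene, with Col1a1-detected cells 8, without cells of few genes 9, and within Jul29, Nov4 and Nov11 9, 7 and 9.

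Serpinh1 ranked at place 10 of the 5038 genes and Plod2, at 0.37, at place 34. Bmp1 followed with 0.32, P4hb with 0.27 and P4ha1 with 0.24. P4hb was at 0.68 in scar cells, -0.30 there without the 5 shallow ones, 0.46 in resident CD31- CD45- cells (0.39 without the 2 farthest from the class median of Col1a1), -0.10 in resident Tcf21-traced cells and between -0.24 and 0.05 in the other infarct classes. The mean of the 10 genes was itself correlated with the number of genes per cell at 0.74, and Col1a1 at 0.32. With that number taken out, the median of the 10 fell to 0.11 and that of all genes to -0.01. Serpinh1 (0.38), Plod2 (0.31) and Bmp1 (0.21) then had the highest values of the 10, and P4hb came to 0.13. With only the 177 cells that had Col1a1 above 5 TPM the median of the 10 was 0.13.

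Captures and classes differed in these relations. Plod2 was at 0.44 in Jul29, 0.35 in Nov4 and 0.54 in Nov11. Serpinh1 was at 0.08 in Jul29, 0.50 in Nov4 and 0.85 in Nov11, so its pooled value rested on the later captures, and it was 0.29 over all captures when the cells with few genes were left out. By class, Serpinh1 was at 0.87 in scar cells, 0.55 in activated Tcf21-traced cells and -0.02 in Postn-traced cells. Without the 2 cells farthest from the class median of Col1a1, a step added after the data were seen, these became 0.82, 0.30 and 0.03. In scar cells 4 of the 5 shallow cells have Serpinh1 and Col1a1 both at 0, and over the 24 scar cells without the shallow ones, also a step added after the data were seen, Serpinh1 was at 0.70.

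Plod2 reached 0.45 in untraced Postn-positive, 0.50 in Postn-traced, 0.46 in activated Tcf21-traced and 0.54 in scar cells. It was at 0.12 in Postn-negative and -0.32 in resident Tcf21-traced cells. In these 2 classes it was above 5 TPM in 5 of 24 and 3 of 17 cells, so their values rest on few cells. Without the 2 farthest cells of each class the values of the first 4 classes were 0.20, 0.48, 0.40 and 0.49, so much of the value in untraced Postn-positive cells rested on those cells. Bmp1 gave 0.53, 0.58, 0.52 and 0.47 in the same 4 classes and 0.43, 0.21, 0.43 and 0.34 without the farthest cells. In the 24 scar cells without the shallow ones Plod2 was at 0.48 and Bmp1 at 0.04. Pcolce had 0.74 in Postn-traced cells and 0.16 without 2 of them. In resident CD31- CD45- cells Bmp1 went from 0.27 to 0.62 and Plod2 from 0.10 to -0.25 without the 2 farthest of the 12 cells, while in resident Tcf21-traced cells Bmp1 went from -0.32 to -0.45. These values changed with few cells, and no difference between resident and infarct classes was tested.

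**Figure D4:**
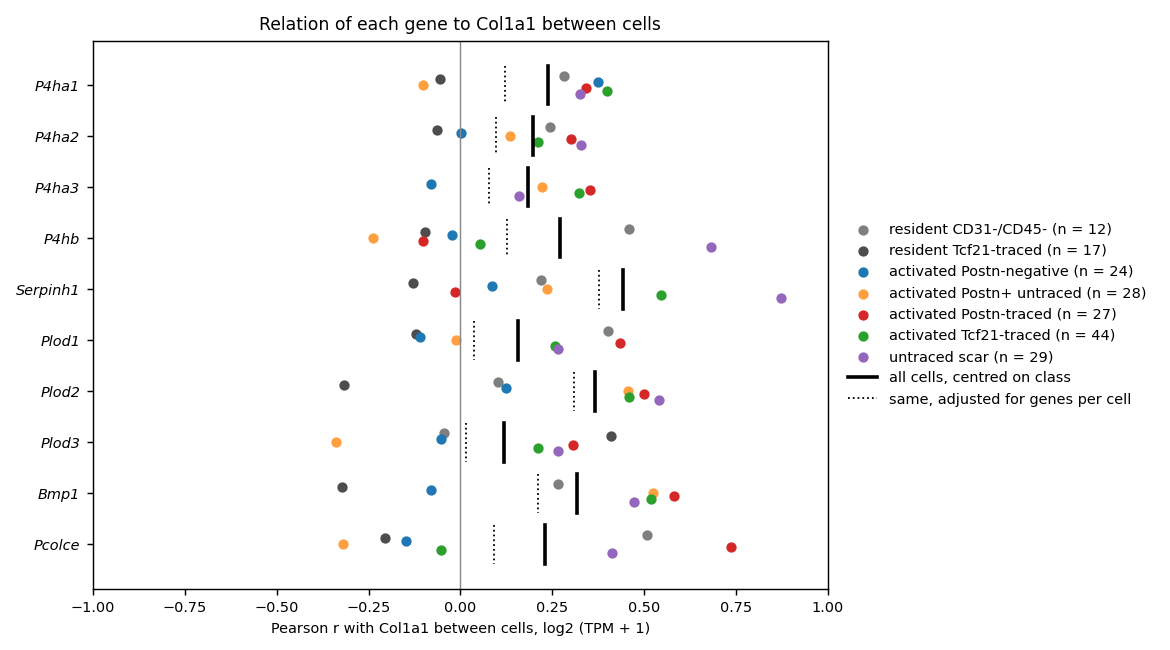
Pearson correlation with Col1a1 between cells (horizontal axis) for each of the 10 genes; points are classes of 12 or more cells, thick lines the value over all 185 cells centred on class, and dotted lines the same adjusted for the number of genes per cell. Plod2 and Bmp1 have 4 infarct classes near 0.5, Serpinh1 spreads from -0.13 to 0.87, and P4ha3 has no value in the resident classes, where it is at 0.

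Related lists can be read on the same scale. The median correlation with Col1a1 was 0.35 for the other fibrillar collagens, 0.34 for lysyl oxidases, 0.21 for the other genes of collagen modification and folding, 0.13 for procollagen export and 0.12 for general chaperones. After adjustment for genes per cell these were 0.30, 0.22, 0.14, 0.03 and -0.01. Among themselves the 10 genes were weakly related, with a median of 0.20 over 45 pairs and values from -0.01 for Plod3 and Serpinh1 to 0.35 for P4hb and Pcolce.

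Of 1640 genes above 5 TPM in at least 50% of the cells, those most like the mean of the 10 over the 185 centred cells were Lox (0.56), Fn1 (0.54), Fbn1 (0.53), Hsbp1 (0.52) and Col3a1 (0.51), against a median of 0.26 for all. Lox, Fn1, Fbn1 and Col3a1 encode a collagen cross-linking enzyme and proteins of the extracellular matrix. Lox, Fn1, Hsbp1, Fbn1 and Col3a1 were also correlated with the number of genes per cell, at 0.57, 0.56, 0.54, 0.43 and 0.38.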

How the data were processed

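Single cardiac non-myocytes captured on the Fluidigm C1 system were amplified by SMARTer chemistry, and Nextera libraries were sequenced single-end. The authors deposited log2 (TPM+1) values with a pseudocount of 1. The submitters' processing notes name Bowtie 1.0.0, eXpress 1.5.1 and mm10, and the annotation is not given in the sources used. The title of the table says FPKM, but the values converted back sum to between 999257 and 1000000 per cell, so they were read as TPM. SMARTer libraries carry no molecular identifiers, so amplified copies cannot be removed. No further normalization was applied, and 3 columns without a sample were not used.

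Cells were grouped by label and capture. A class value is the mean of log2 (TPM+1), and in 8 comparisons a difference above 1 log2 unit served as a size rule and not a test. Genes above 5 TPM in at least 20% of the cells of either class were compared. Named genes are the 10, Col1a1, Col1a2, Col3a1, genes of the lists past 1 log2 unit or the 4 with the largest difference, and the 5 most like the mean of the 10. The genes and lists were chosen with earlier results of these data known. Alternatives changed the averaging, the pseudocount (0.1 or 5), the minimum (1 TPM or any value), the centring of cells, the cells included, the size rule and the correlation. The functions were tested on simulated data. Tables were handled in pandas 2.3.3 and NumPy 2.4.6 under Python 3.11.15, intervals and ranks came from SciPy 1.17.1, and plots from Matplotlib 3.10.9.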

Additional observations from a re-analysis of the deposited data

How the results depend on the processing

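Read depth, the missing animals and the single capture of most classes limit every value. Of the differences of single genes 385 moved by less than 0.5 log2 units under an alternative, 180 moved by more and 5, past 1 log2 unit at first, changed sign. Of the correlations 71 stayed within 0.1 and 29 did not. Shares of cells stayed inside their exact interval in 134 cases and not in 6. Shares of the P4ha family stayed within 10 percentage points in 45 and not in 18, and those of the Plod family in 39 and not in 24. The median number of the 10 genes per cell was within 1.5 times in all 14, with 5 becoming 6, 6 becoming 7 and 7.5 becoming 8 at lower minimums.

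With means of TPM the median difference of the 10 genes became 0.51 for Postn-traced against Postn-negative cells. There 3 genes were more than 1 log2 unit higher, beside 25.9% of all genes. The median became 1.32 for activated against resident Tcf21-traced cells, 1.24 for Postn-traced against resident Tcf21-traced cells and -0.36 for scar cells. In Postn-negative against resident cells 4 genes were higher, beside 31.9% of all genes. Bmp1 reversed to 0.25 between activated Tcf21-traced and Postn-traced cells (0.01 without 1 Tcf21-traced cell, a step added after the data were seen). P4ha1 reversed to 0.082 in scar cells (-0.33 without 1 scar cell, the same step). There 1 gene was higher and 2 in place of 7 were lower, beside 14.7% and 25.6% of all genes. Within Nov4 1 gene was higher in Tcf21-traced cells and 0 in place of 2 lower, beside 18.9% and 15.8% of all genes. With medians over cells the first 3 medians were 1.91, 2.60 and 2.99, and that of Postn-negative against resident cells was 0. By these medians 2 genes were higher in Tcf21-traced than in Postn-traced cells and 2 than in untraced cells of the same capture. The share of all genes is not given for medians over cells, so these counts cannot be set against genes at large.

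With a pseudocount of 0.1 the first 3 medians were 1.99, 2.56 and 2.88, that of scar cells was -1.76, and 1 gene was higher in each comparison of activated Tcf21-traced with other Postn-expressing cells. With a pseudocount of 5, 1.26 and 1.66 were found against resident Tcf21-traced cells, and 1 gene was higher in Postn-negative against resident cells. For neither pseudocount is the share of all genes given, so these counts cannot be set against genes at large. With a size rule of 2 log2 units 3, 4 and 1 genes were higher in Postn-traced against Postn-negative, activated against resident Tcf21-traced and Postn-negative against resident cells, beside 10.4%, 12.2% and 7.20% of all genes. Centring cells gave 1.80 for Postn-traced against Postn-negative cells and -2.07 for scar cells.

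For scar cells the median was -0.34 without cells of few genes, -0.66 with Col1a1-detected cells, where 1 gene was higher, and -0.37 without shallow cells, an alternative chosen after the data were seen. P4hb reversed in these to 0.59, 0.11 and 0.53. The share of all genes is not given beside the 1 gene higher with Col1a1-detected cells. The median correlation with Col1a1 was 0.11 adjusted for genes per cell and 0.13 with Col1a1-detected cells. For each of these changes the cause was not tested.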

Other observations

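The genes most correlated with Col1a1 over the 185 centred cells were Col3a1 (0.66), Lars2 (0.58), Col1a2 (0.53), Gm10222 (0.49), Rps15 (0.49), Fn1 (0.48), Rps29 (0.46) and Rpl41 (0.44). Apart from the collagen genes and Fn1 they were named after their values were seen. The correlation of Lars2 with the number of genes per cell was -0.01.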
